A study of Mus musculus with 8 samples.

Results

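Bcl6, Bhlhe40, Bhlhe41, Zeb2, Ikzf1, Id2, Ncor1 and Tle3 encode proteins that hold genes off, and their own nascent transcription was followed here in mouse macrophages given lipopolysaccharide (LPS). The genes were taken by symbol from the deposited table, 8 of the 22753 genes it lists, and all 8 were among the 8343 genes that passed the filter on low values. Macrophages were grown from the bone marrow of male C57BL/6 mice of 8 weeks, moved to macrophage serum-free medium and given 100 ng/ml LPS, the gram-negative cell wall component sensed by Tlr4. The 4 groups were untreated cells (0 min) and cells at 20, 60 and 180 min of LPS, each with 2 biological replicates (n = 2). The measurement was GRO-seq, a nuclear run-on in which engaged RNA polymerases extend their transcripts with a tagged nucleotide, so that the reads mark RNA being made at harvest and not RNA in store. Values are FPKM, reads per length of gene span adjusted for library size, which puts genes of different length on a common scale. FPKM does not show where in a span the reads lie, so levels of short and long genes compare only roughly.

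Transcriptional repressors work in layers. Sequence-specific proteins such as Bcl6, Zeb2, Ikzf1 (Ikaros) and the paired basic helix-loop-helix (bHLH) proteins Bhlhe40 and Bhlhe41 bind DNA and bring corepressors, among them Ncor1 and the Groucho protein Tle3, which in turn work with histone deacetylases. Id2 has no DNA-binding region and acts by binding E proteins, bHLH activators that it keeps off DNA. In macrophages Bcl6 and Ncor1 are known for restraining inflammatory genes, Zeb2 for holding the identity of tissue macrophages, and Bhlhe40 for limiting Il10.

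Promoter sequence was taken from RefSeq on GRCm38.p6, which held 7 of the 8 genes with 13 annotated starts, and Bhlhe40 was not matched. The 250 bases before each start were searched on both strands for the E-box CACGTG that bHLH dimers recognise, the E2-box of Zeb and E proteins, CACCTG or on the other strand CAGGTG, the NF-kB consensus, the AP-1 site TGANTCA, the cyclic AMP site TGACGTCA, the palindrome TTCNNNGAA shared by STAT and Bcl6 type sites, and the Ikaros core TGGGAA. The 6 windows below are those of Bcl6, Bhlhe41, Tle3 and Zeb2 that hold E-boxes, palindromes or AP-1 sites, set beside 1 window of Ikzf1 that holds none; the Zeb2 starts 2 and 3 are named only. Each line runs 5′ to 3′ up to the base before the start, and capitals mark the matches.
Bcl6 start 1 (chr16:23988853-23989102, minus strand): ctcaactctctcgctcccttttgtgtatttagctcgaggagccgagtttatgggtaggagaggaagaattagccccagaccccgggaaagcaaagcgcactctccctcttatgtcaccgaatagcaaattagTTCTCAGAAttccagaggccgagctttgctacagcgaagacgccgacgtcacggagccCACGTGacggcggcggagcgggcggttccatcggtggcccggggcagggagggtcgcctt
Bcl6 start 2 (chr16:23981284-23981533, minus strand): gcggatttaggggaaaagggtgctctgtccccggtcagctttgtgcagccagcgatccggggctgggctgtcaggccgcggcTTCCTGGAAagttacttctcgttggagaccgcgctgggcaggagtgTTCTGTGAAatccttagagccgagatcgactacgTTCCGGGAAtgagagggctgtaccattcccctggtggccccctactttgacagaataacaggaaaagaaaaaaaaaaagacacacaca
Bhlhe41 (chr6:145865421-145865670, minus strand): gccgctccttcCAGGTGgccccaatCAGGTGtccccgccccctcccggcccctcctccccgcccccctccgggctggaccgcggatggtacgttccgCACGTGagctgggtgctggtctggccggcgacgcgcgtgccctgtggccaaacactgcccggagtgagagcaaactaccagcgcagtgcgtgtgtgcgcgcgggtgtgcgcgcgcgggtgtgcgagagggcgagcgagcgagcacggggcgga
Tle3 (chr9:61372116-61372365, plus strand): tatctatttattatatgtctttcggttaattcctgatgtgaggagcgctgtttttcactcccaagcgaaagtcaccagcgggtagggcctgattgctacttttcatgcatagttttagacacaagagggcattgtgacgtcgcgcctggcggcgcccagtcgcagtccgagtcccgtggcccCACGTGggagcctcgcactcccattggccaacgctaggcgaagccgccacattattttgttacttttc
Zeb2 start 4 (chr2:45110278-45110527, minus strand): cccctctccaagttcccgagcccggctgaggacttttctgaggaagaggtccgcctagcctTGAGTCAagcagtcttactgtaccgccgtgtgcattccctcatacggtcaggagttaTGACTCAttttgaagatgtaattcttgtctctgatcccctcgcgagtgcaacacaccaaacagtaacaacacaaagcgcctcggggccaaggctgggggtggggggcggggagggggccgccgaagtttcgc
Ikzf1 start 1 (chr11:11685675-11685924, plus strand): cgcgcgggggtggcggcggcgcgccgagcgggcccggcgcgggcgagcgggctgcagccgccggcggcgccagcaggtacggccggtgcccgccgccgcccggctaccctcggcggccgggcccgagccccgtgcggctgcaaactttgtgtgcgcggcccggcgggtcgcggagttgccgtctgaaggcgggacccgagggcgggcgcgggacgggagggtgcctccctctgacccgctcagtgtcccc

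Bcl6 start 1 held CACGTG 60 to 55 bases before the start and TTCTCAGAA 118 to 110 bases before it. Bcl6 start 2 held 3 matches of the palindrome, the type of site that the Bcl6 protein itself can bind. Bhlhe41 held CACGTG 153 to 148 bases before its start and CAGGTG at 239 to 234 and at 225 to 220 bases. Tle3 held CACGTG 68 to 63 bases before its start, and Zeb2 start 4 held TGAGTCA and TGACTCA. The remaining windows held TTCTGTGAA (the overlapping Zeb2 starts 2 and 3), 1 NF-kB consensus match (Ncor1 start 1) and TGGGAA (Ncor1 start 2). No match was found in the windows of Id2, of Zeb2 start 1 or of both Ikzf1 starts, of which start 1 had a GC content of 82% and start 2 of 47.6%. Over all 32851 windows of this length in the table, CACGTG was in 6.02%, CACCTG in 17.2%, the NF-kB consensus in 7.25%, TGANTCA in 6.75%, TGACGTCA in 1.55%, TTCNNNGAA in 7.02% and TGGGAA in 21.6%. A match describes letters only, and which start the transcripts of the mm9 table use was not determined.

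**Figure D1:**
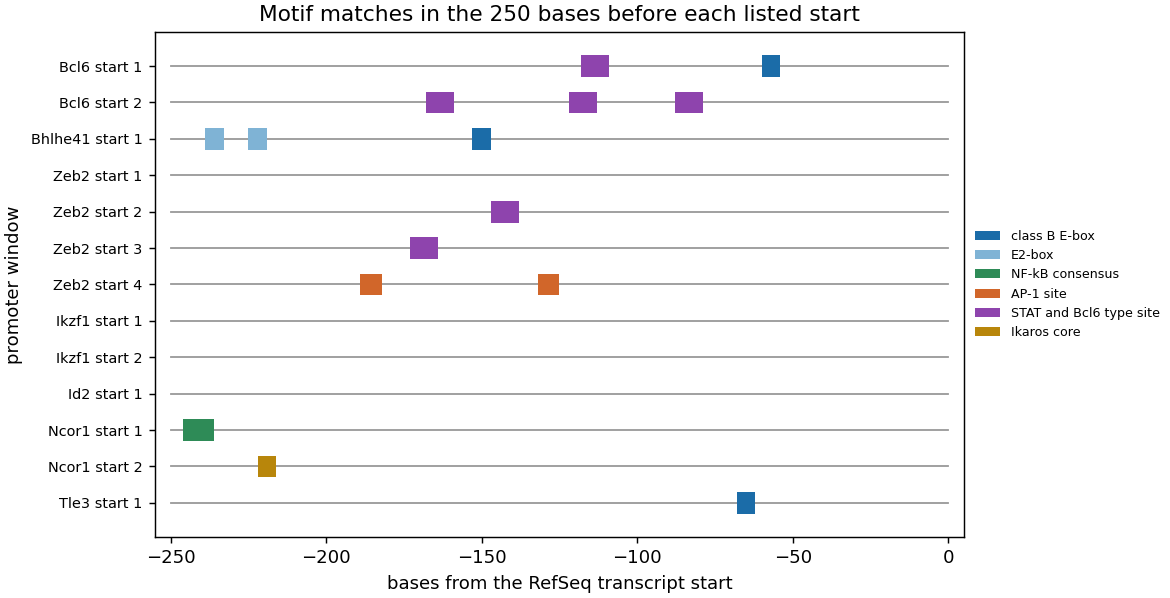
Motif matches in the 13 promoter windows of the 7 matched genes, by distance from the annotated start in bases; each line is a window of 250 bases and each coloured bar a match, with CACGTG keyed as class B E-box. Bcl6 start 2 carries 3 palindrome matches, and both Ikzf1 starts and Id2 carry none.

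The recovered depth was 44.4 to 61.2 M reads in replicate 1 and 7.96 to 11.1 M in replicate 2. Replicate numbers went with a shared difference between libraries at every time, so each comparison is given in a limma fit without the replicate number (unpaired) and in one with it as a block (paired). Changes are differences of log2(FPKM + 0.1), which understates changes of low genes, and a gene was called at an adjusted p (Benjamini-Hochberg over the 8343 genes tested) under 0.05. The median change of all tested genes was -0.20 at 20 min, -0.29 at 60 min and -0.69 at 180 min against 0 min. Median-ratio scaling of the libraries removes that shift, so values after it are also given. Of the markers of macrophages, 8 of 8 passed the filter, with summed levels of 51.6 to 159 FPKM per library. No marker of another cell type passed it: the sums reached 1.51 FPKM for T and NK cells, 1.11 for B cells, 1.69 for granulocytes, 0.624 for dendritic cells, 0.174 for stroma and endothelium and 0.016 for erythroid cells (Hbb-b1 at 0 in every library). In bulk libraries, fewer cells transcribing a gene and less transcription per cell cannot be told apart.

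The genes differed in level and in time course. By mean over the 8 libraries, Id2 (24.8 FPKM) and Zeb2 (22.3) stood highest, above 98.6% and 98.5% of tested genes, followed by Ikzf1 (7.81) and Bcl6 (7.64), Bhlhe41 (3.84), Bhlhe40 (2.55), Tle3 (1.14) and Ncor1 (1.13). Over all times, neighbours in this order overlapped in their library values. Against 0 min, Ikzf1 rose at 60 and 180 min and Bhlhe41 fell at 180 min in both fits. In the fits to deposited values, the paired one alone called the rest: Bcl6 and Zeb2 were higher at 60 min, Tle3 at 60 and 180 min, Id2 was higher at 20 min, Ncor1 was lower at 60 and 180 min, Bhlhe41 at 60 min too, and Bhlhe40 at 180 min.

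**Figure D2:**
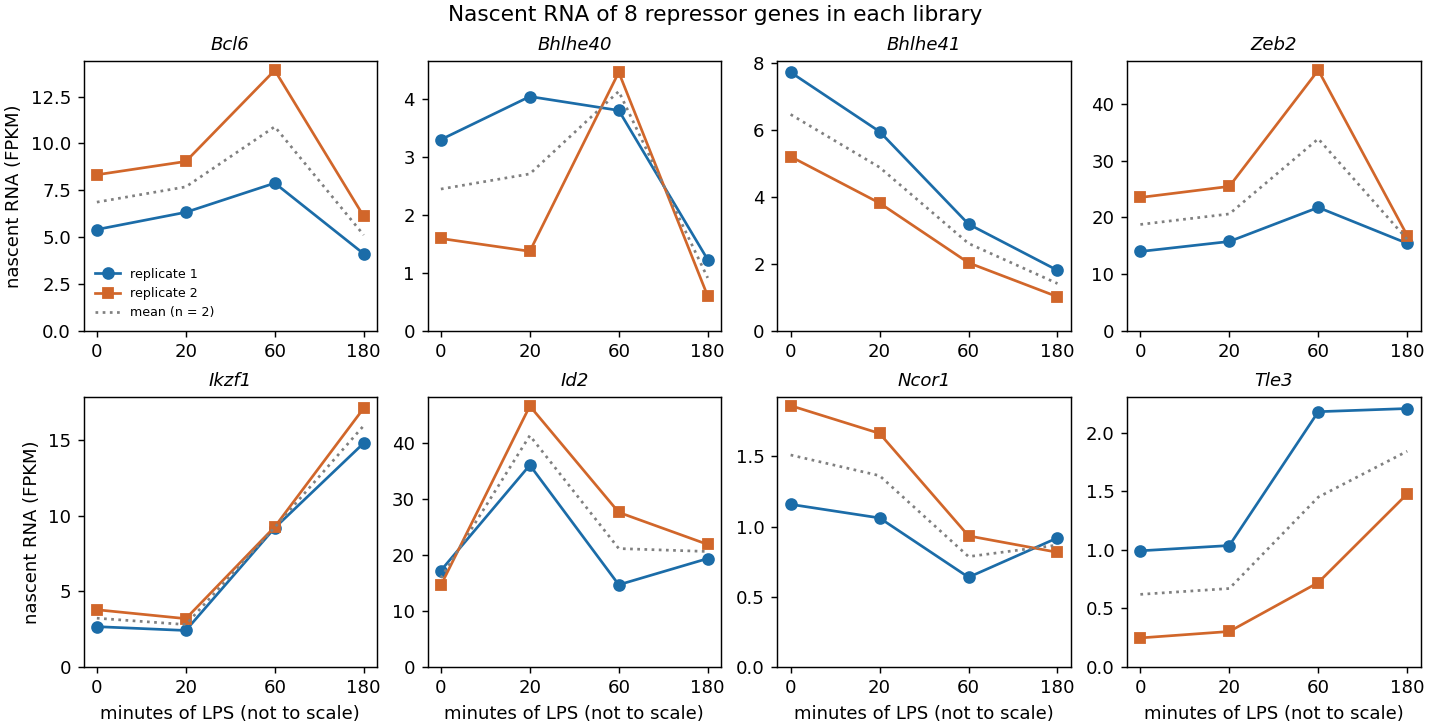
FPKM of each gene (axes start at 0) at 0, 20, 60 and 180 min of LPS, with times not to scale; solid lines are replicates 1 and 2, and the dotted line is their mean (n = 2). Ikzf1 climbs to 14.8 and 17.1 FPKM at 180 min, Bhlhe41 descends to 1.80 and 1.02, Id2 peaks at 20 min, and Bcl6 and Zeb2 peak at 60 min in both replicates.

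Among the DNA-binding repressors, Ikzf1 had the highest change of group means at 180 min. Ikzf1, a zinc finger protein of lymphoid and myeloid development that works with the NuRD remodelling complex, spans chromosome 11, 11586216 to 11672929 (mm9, plus strand). It stood at 2.66 and 3.78 FPKM at 0 min in replicates 1 and 2, at 2.40 and 3.19 at 20 min, at 9.20 and 9.27 at 60 min and at 14.8 and 17.1 at 180 min. Both libraries at 60 min lay above those at 0 and 20 min, and both at 180 min lay above those at 60 min. The level at 180 min was 5.58 times that at 0 min in replicate 1 and 4.54 times in replicate 2. Ikzf1 rose by 1.51 ± 0.32 (SE) at 60 min (limma adjusted p = 0.0232) and by 2.29 ± 0.32 at 180 min (adjusted p = 0.00306), a change above that of 96.0% of tested genes. After median-ratio scaling the change at 180 min was 3.02 (0.00367 unpaired, 5.5e-05 paired). Between 20 and 60 min it rose by 1.7 ± 0.32 (adjusted p = 0.0308). From 60 to 180 min the difference was 0.78 ± 0.32, which passed only in the paired fit (adjusted p = 0.184 unpaired, 0.0219 paired).

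The Ikzf1 call at 180 min was kept with each of the 8 libraries left out in turn in both fits, with adjusted p of at most 0.0287 unpaired and 0.00202 paired. The unpaired call at 60 min was lost after quantile normalization (adjusted p = 0.0569) and with only the compared groups in the fit (0.0850). That between 20 and 60 min was lost after median-ratio scaling (0.0634), after quantile normalization (0.0873) and with only the compared groups in the fit (0.125). With libraries left out, the unpaired call at 60 min was lost in 5 of 8 cases: without 0 min replicate 1 (adjusted p = 0.178) or replicate 2 (0.0847), 20 min replicate 2 (0.0538), or 60 min replicate 1 (0.0679) or replicate 2 (0.114). The unpaired call between 20 and 60 min was kept only without 180 min replicate 1 (adjusted p = 0.0473), with the others at 0.0501 to 0.208. Both held in the paired fit in all 8 cases, with adjusted p of at most 0.00806 and 0.0115. The paired call from 60 to 180 min was lost without 60 min replicate 2 (0.147) or 180 min replicate 2 (0.0628). At 20 min Ikzf1 was not called, and its change of -0.19 became 0.03 after median-ratio scaling.

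Bcl6, a BTB zinc finger repressor that recruits Ncor1 and Bcor, spans chromosome 16, 23965138 to 23988698 (mm9, minus strand). Its levels in replicates 1 and 2 were 5.41 and 8.33 FPKM at 0 min, 6.33 and 9.04 at 20 min, 7.88 and 13.9 at 60 min, and 4.11 and 6.11 at 180 min. The 0 and 60 min groups overlapped, since replicate 2 was the higher library at every time, but each replicate was highest at 60 min and lowest at 180 min. The level at 60 min was 1.46 and 1.67 times that at 0 min in the 2 replicates. The change at 60 min was 0.63 ± 0.43 in the unpaired fit (adjusted p = 0.405) and passed in the paired fit (SE 0.20, adjusted p = 0.0348; 0.0188 after median-ratio scaling). From 60 to 180 min both libraries dropped below both 60 min libraries, and the change was -1.05 ± 0.43 (adjusted p = 0.188 unpaired, 0.00486 paired, 0.0850 paired after median-ratio scaling). Against 0 min the value at 180 min was -0.41, which was not called and became 0.32 after median-ratio scaling.

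The paired Bcl6 call at 60 min was kept in 2 of 8 cases, those without a 180 min library. It was lost without 0 min replicate 1 (adjusted p = 0.237) or replicate 2 (0.269), 20 min replicate 1 (0.0677) or replicate 2 (0.0669), or 60 min replicate 1 (0.0516) or replicate 2 (0.204). The paired call from 60 to 180 min was kept in all 8 cases, with adjusted p of at most 0.0497.

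Zeb2, a zinc finger and homeobox repressor that works through CtBP, covers 129645 bases of chromosome 2, 44839154 to 44968799 (mm9, minus strand). It stood at 14.0 and 23.5 FPKM at 0 min, 15.8 and 25.5 at 20 min, 21.8 and 46.0 at 60 min, and 15.4 and 16.8 at 180 min in replicates 1 and 2. Replicate 2 was the higher library at each time and the 0 and 60 min groups overlapped, while both 180 min libraries lay below both 60 min libraries. The change at 60 min was 0.80 ± 0.49, called only in the paired fit (adjusted p = 0.349 unpaired, 0.0367 paired). From 60 to 180 min it was -0.97 ± 0.49 (adjusted p = 0.261 unpaired, 0.0199 paired, 0.154 paired after median-ratio scaling). At 180 min against 0 min the replicates went opposite ways, with 1.10 times the 0 min level in replicate 1 and 0.714 times in replicate 2. That comparison gave -0.17 and was not called, and it gave 0.57 after median-ratio scaling.

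The paired Zeb2 call at 60 min was lost without 0 min replicate 1 (adjusted p = 0.195) or replicate 2 (0.138), 20 min replicate 1 (0.0575) or replicate 2 (0.0563), or 60 min replicate 2 (0.261). That from 60 to 180 min was lost without 60 min replicate 2 (0.140) or 180 min replicate 2 (0.123). Zeb2 shares 1019 bases, 0.786% of its span, with the antisense gene Zeb2os at its start. Zeb2os stood at 15.1 FPKM in replicate 1 and 45.0 in replicate 2 at 0 min, and at 6.54 and 21.9 at 180 min. Strand handling is not given in the sources used here, so reads of the pair cannot be told apart in the shared stretch.

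Bhlhe40 (Dec1) and Bhlhe41 (Dec2) are paralogs that bind E-boxes and repress clock genes, and their nascent levels followed different courses. Bhlhe41 (mm9, chromosome 6, 145806763 to 145813940, minus strand) stood at 7.71 and 5.20 FPKM at 0 min, 5.94 and 3.81 at 20 min, 3.18 and 2.03 at 60 min, and 1.80 and 1.02 at 180 min in replicates 1 and 2. Each library was lower than the one before it of the same replicate number, and the groups at 60 and 180 min did not overlap with 0 min or with each other. At 180 min the level was 0.234 of that at 0 min in replicate 1 and 0.195 in replicate 2. Bhlhe41 fell at 180 min by 2.14 ± 0.43 (adjusted p = 0.0112), and after median-ratio scaling the change was -1.44 (0.0161 unpaired, 0.00085 paired). At 60 min its change was -1.28 ± 0.43 (adjusted p = 0.10 unpaired, 0.00117 paired), called unpaired after quantile normalization (0.0207) and by voom on recovered reads (0.0454). Between 20 and 60 min it was -0.88 and between 60 and 180 min -0.86, both called only in the paired fit (adjusted p = 0.0129 and 0.0111), the latter not after median-ratio scaling (0.10).

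The unpaired Bhlhe41 call at 180 min was lost without 0 min replicate 1 (adjusted p = 0.0682) or 180 min replicate 2 (0.0726). In the paired fit the calls at 60 and 180 min were kept in all 8 cases, with adjusted p of at most 0.0197 and 0.00146. The paired call between 20 and 60 min was lost without 20 min replicate 1 (0.0814) or replicate 2 (0.120), or 60 min replicate 1 (0.0632) or replicate 2 (0.0758). That between 60 and 180 min was lost without 60 min replicate 1 (0.0503) or replicate 2 (0.0725).

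Bhlhe40 (mm9, chromosome 6, 108610623 to 108616919, plus strand) stood at 3.30 and 1.59 FPKM at 0 min, 4.05 and 1.37 at 20 min, 3.81 and 4.47 at 60 min, and 1.23 and 0.598 at 180 min in replicates 1 and 2. The replicates disagreed on the peak, which was at 20 min in replicate 1 and at 60 min in replicate 2, and both were lowest at 180 min. The level at 60 min was 1.15 times that at 0 min in replicate 1 and 2.80 times in replicate 2. The change at 60 min was 0.81 ± 0.60 and was not called in either fit (adjusted p = 0.443 unpaired, 0.102 paired), although the 60 min libraries lay above the 0 min libraries. At 180 min it was -1.32 ± 0.60 (adjusted p = 0.131 unpaired, 0.0111 paired), and after median-ratio scaling -0.64 (0.244 paired). From 60 to 180 min it was -2.13 ± 0.60, with a lower change in 1.64% of tested genes (adjusted p = 0.0810 unpaired, 0.00255 paired).

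The paired Bhlhe40 call at 180 min was lost without 180 min replicate 1 (adjusted p = 0.0690) or replicate 2 (0.117), and that from 60 to 180 min without 180 min replicate 2 (0.0670). Bhlhe40 had few recovered reads in replicate 2, between 30 and 313 per library, which gives a counting error of 5.65 to 18.3%. In replicate 1 it had 343 to 1448 reads. Its first 305 bases, 4.84% of its span, overlap 0610040F04Rik on the other strand, which stood at 0.025 to 0.18 FPKM.

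Id2 (mm9, chromosome 12, 25778664 to 25780957, minus strand), the inhibitor of E proteins, peaked at 20 min in both replicates. Bhlhe40 did so in replicate 1. Values cover whole gene spans, from 2293 bases in Id2 to 129645 in Zeb2, and the part of span length in the timing was not tested. Id2 stood at 17.2 and 14.6 FPKM at 0 min, 36.1 and 46.7 at 20 min, 14.7 and 27.7 at 60 min, and 19.4 and 21.9 at 180 min in replicates 1 and 2. Both 20 min libraries lay above every other library of the gene, while the 60 min libraries lay on both sides of those at 180 min and overlapped those at 0 min. The level at 20 min was 2.10 times that at 0 min in replicate 1 and 3.20 times in replicate 2, while at 60 min it was 0.852 and 1.89 times. The change at 20 min was 1.37 ± 0.39, higher than that of 98.1% of tested genes, with adjusted p = 0.551 unpaired, 0.0378 paired and 0.0702 paired after median-ratio scaling. From 20 to 60 min it was -1.02 ± 0.39 (adjusted p = 0.220 unpaired, 0.0299 paired, 0.0906 paired after median-ratio scaling). At 180 min the change from 0 min was 0.38 (0.476 unpaired, 0.259 paired), and 1.11 (0.030 paired) after median-ratio scaling, but -0.13 after quantile normalization.

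The paired Id2 call at 20 min was lost without 0 min replicate 2 (adjusted p = 0.380), 20 min replicate 1 (0.280) or replicate 2 (0.127), or 180 min replicate 1 (0.0772) or replicate 2 (0.0791). That from 20 to 60 min was lost without 20 min replicate 1 (0.107) or replicate 2 (0.173), 60 min replicate 1 (0.180), or 180 min replicate 1 (0.0547) or replicate 2 (0.0560).

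The 2 corepressors, both low in level, were called in opposite directions in the paired fit to deposited values at 60 and 180 min. Neither was called in the unpaired fit to those values, and the difference between them was not tested. Tle3 (mm9, chromosome 9, 61220173 to 61266304, plus strand), a Groucho corepressor that is recruited by Hes, Runx and Tcf proteins, stood at 0.990 and 0.246 FPKM at 0 min, 1.04 and 0.301 at 20 min, 2.18 and 0.719 at 60 min, and 2.21 and 1.48 at 180 min in replicates 1 and 2. Replicate 1 was higher at every time, and only the 180 min libraries lay above both 0 min libraries. The level at 180 min was 2.23 times that at 0 min in replicate 1 and 6.00 times in replicate 2. The change at 180 min was 1.63 ± 0.77 (adjusted p = 0.143 unpaired, 0.00142 paired), and at 60 min 1.15 ± 0.77 (0.396 unpaired, 0.0137 paired). At 180 min the unpaired change was called after median-ratio scaling (2.30, adjusted p = 0.0365) and after quantile normalization (2.31, 0.0456). Between 20 and 60 min it was 1.02 (0.594 unpaired, 0.0361 paired, 0.0530 paired after median-ratio scaling).

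The paired Tle3 call at 180 min was kept in all 8 cases, with adjusted p of at most 0.0104. The paired call at 60 min was lost without 0 min replicate 2 (0.139) or 60 min replicate 1 (0.0875) or replicate 2 (0.0620), and that between 20 and 60 min without 20 min replicate 1 (0.0807) or replicate 2 (0.210) or 60 min replicate 1 (0.176) or replicate 2 (0.127). The log2 difference of replicate 2 minus replicate 1 was -1.66 for Tle3 at 0 min, beside a median of -0.20 over all tested genes, and its part in the result was not tested.

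Ncor1 (mm9, chromosome 11, 62129928 to 62252017, minus strand), the nuclear receptor corepressor that carries Hdac3, stood at 1.16 and 1.86 FPKM at 0 min, 1.06 and 1.66 at 20 min, 0.638 and 0.933 at 60 min, and 0.919 and 0.816 at 180 min in replicates 1 and 2. Both libraries at 60 and at 180 min lay below both at 0 min. The level at 60 min was 0.551 of that at 0 min in replicate 1 and 0.501 in replicate 2. The change at 60 min was -0.85 ± 0.36 (adjusted p = 0.180 unpaired, 0.0276 paired, 0.0501 paired after median-ratio scaling). At 180 min it was -0.70 ± 0.36 (0.172 unpaired, 0.0369 paired), close to the median of all genes at that time, and -0.02 (0.925 paired) after median-ratio scaling. Quantile normalization gave 0.0024 at 180 min. From 20 to 60 min it was not called as deposited (0.0752 paired) but was after median-ratio scaling, at -0.60 (0.0417 paired).

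The paired Ncor1 call at 60 min was lost without 0 min replicate 1 (adjusted p = 0.0782) or replicate 2 (0.287), or 60 min replicate 1 (0.121) or replicate 2 (0.114). That at 180 min was lost without 0 min replicate 1 (0.0865) or replicate 2 (0.314), 60 min replicate 1 (0.0517) or replicate 2 (0.0526), or 180 min replicate 2 (0.142).

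Counted together, the unpaired fit called 0 of the 8 genes at 20 min against 0 min (1 at an unadjusted p under 0.05), where it called 0.108% of all tested genes, and the paired fit called 1, higher, where it called 2.98% (2.3% higher, 0.683% lower). At 60 min the unpaired fit called 1 of 8, higher, beside 13.9% of all genes (5.07% higher, 8.8% lower), and the paired fit called 6, of which 4 were higher and 2 lower, beside 39.6% of all genes (11.7% higher, 27.9% lower). At 180 min the unpaired fit called 2 of 8 (1 higher, 1 lower), beside 32.3% (8.93% higher, 23.4% lower), and the paired fit called 5 (2 higher, 3 lower), beside 65.8% (14.2% higher, 51.6% lower). These shares at 180 min are close to the background. Between 20 and 60 min the unpaired fit called 1, higher, beside 5.74% of all genes (2.28% higher, 3.46% lower), and the paired fit 2 higher and 2 lower, beside 23.9% (9.29% higher, 14.6% lower). Between 60 and 180 min the unpaired fit called 0 (3 at an unadjusted p under 0.05), beside 7.99% (4.08% higher, 3.92% lower), and the paired fit 1 higher and 4 lower, beside 37.4% (10.5% higher, 26.9% lower). An F-test over the 3 comparisons with 0 min called 2 of 8 unpaired, Ikzf1 and Bhlhe41, beside 24.6% of all genes, and 8 of 8 paired, beside 66.1%. After median-ratio scaling the paired counts were 0 at 20 min (2.28% of all genes), 5 at 60 min (39.9%), 4 at 180 min (51.9%), 3 between 20 and 60 min (27.5%), 2 between 60 and 180 min (28.7%) and 6 in the F-test (57.3%).

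Groups that did not overlap matched the calls of the paired fit only in part. Bcl6, Tle3 and Zeb2 were called higher at 60 min in that fit, though their libraries overlapped with those at 0 min. Bhlhe40 at 60 min and Id2 at 180 min did not overlap with 0 min but were not called. At 20 min 1 gene, Id2, had both libraries above 0 min, as did 8.39% of tested genes, and none had both below, against 29.6%. At 60 min Bhlhe40 and Ikzf1 lay above (17.2% of all genes) and Bhlhe41 and Ncor1 below (36.7%). At 180 min Ikzf1, Id2 and Tle3 lay above (16.1%) and Bhlhe40, Bhlhe41 and Ncor1 below (53.1%). Between 60 and 180 min Ikzf1 lay above (14% of all genes) and Bcl6, Bhlhe40, Bhlhe41 and Zeb2 below (36.2%), and between 20 and 60 min Ikzf1 lay above (19.9%) and Bhlhe41, Id2 and Ncor1 below (25.2%).

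**Figure D3:**
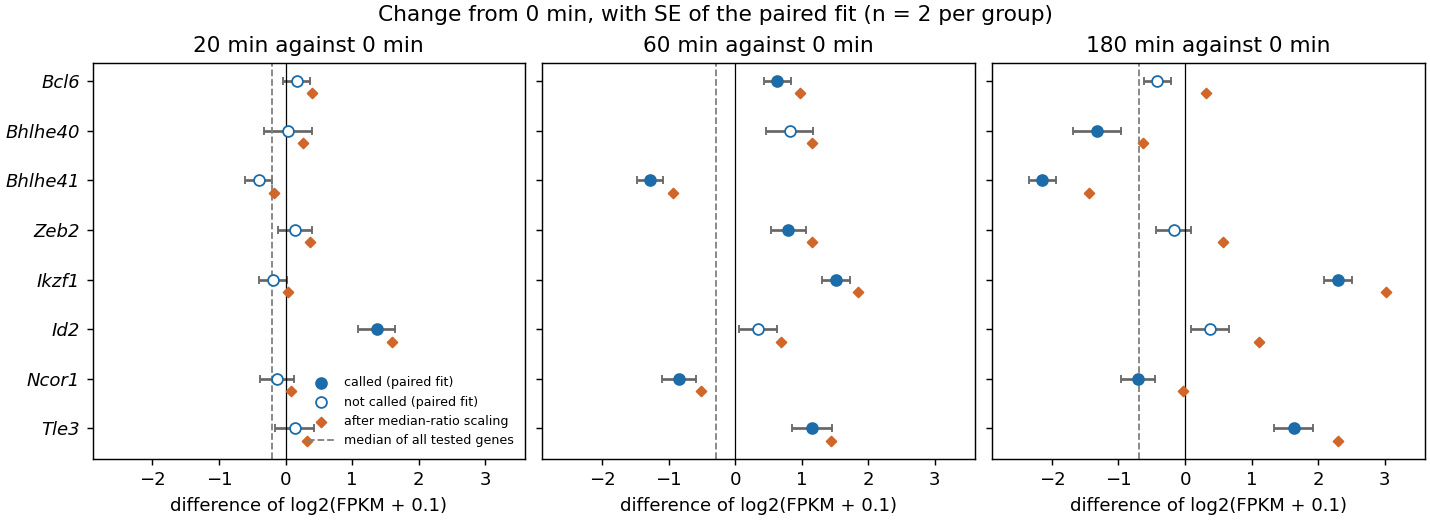
Change of each gene against 0 min at 20, 60 and 180 min, as a difference of log2(FPKM + 0.1) with the SE of the paired fit; filled points were called in the paired fit, diamonds are values after median-ratio scaling, and the dashed line is the median of all tested genes. Ikzf1 reaches 2.29 and Bhlhe41 -2.14 at 180 min, while Bcl6 and Zeb2 are called at 60 min only.

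The genes whose course was most like that of each member were found by Pearson r over the 8 libraries, after the mean of each replicate number was taken out, among 4502 genes with a range of group means of at least 1 on the log2 scale. These are descriptions, since libraries and depths are shared, and r compares the shape of a course and not its size. The 3 nearest to Bcl6 were Hipk1 (r = 0.995), Mmd (0.988) and Prkab2 (0.988), and those nearest to Zeb2 were Ralb (0.991), Tmem123 (0.988) and Nfat5 (0.985). Ikzf1 was nearest to Larp1 (0.995), Rnf145 (0.995) and Cep350 (0.993), and Tle3 to Anxa7 (0.988), Fbxw11 (0.987) and Prr5l (0.986). Bhlhe41 was nearest to Plcb2, S1pr1 and Slc37a2 (each 0.997), and Ncor1 to Rnf130 (0.996), Zfp292 (0.990) and Ugt1a10 (0.989). Id2 was nearest to the immediate early gene Egr1 (0.942), Gdf15 (0.904) and Zfand5 (0.895), and Bhlhe40 to Pdlim5 (0.958), Chka (0.958) and Mcts2 (0.957). Sizes could differ widely: against 0 min, Egr1 had 6.27 at 20 min where Id2 had 1.37, and Slc37a2 had -5.57 at 180 min where Bhlhe41 had -2.14. Among the members, r was 0.94 between Bcl6 and Bhlhe40, 0.90 between Bcl6 and Zeb2, and 0.81 between Bhlhe40 and Zeb2. It was 0.93 between Ikzf1 and Tle3 and 0.81 between Bhlhe41 and Ncor1. Negative values were -0.96 between Bhlhe41 and Ikzf1, -0.95 between Bhlhe41 and Tle3, -0.92 between Ncor1 and Tle3, and -0.80 between Ikzf1 and Ncor1. The next strongest pair in either direction was Bhlhe40 and Bhlhe41 (0.48).

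Partners, relatives and known targets of the 8 genes were described from 8 lists holding 82 genes, of which 54 were tested. Counts are of the paired fit, with those of the unpaired fit in brackets, and each list's median change is set beside the median of all tested genes, -0.29 at 60 min and -0.69 at 180 min. As background, 11.7% of the 8343 tested genes passed upward and 27.9% downward in the paired fit at 60 min. At 180 min these shares were 14.2% and 51.6%. The unpaired shares were 5.07% and 8.8% at 60 min, and 8.93% and 23.4% at 180 min. In the paired fit with median-ratio scaling, 1681 genes passed upward and 1650 downward at 60 min, and 2175 and 2152 at 180 min. Whether a list departed from this background was not tested. The filter takes the mean of all libraries, so a low gene can pass through the group where it is high. Median-ratio scaling changed the sign of no called gene of these lists, and quantile normalization that of Hdac2 and Mta1 at 180 min.

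Of the relatives and partners of Bcl6 (BTB zinc finger factors and BCOR corepressors), 6 of 11 were tested. At 60 min 3 were higher [1] and 2 lower [0], with a list median of 0.13, and at 180 min 0 were higher [0] and 1 lower [1], with a median of -0.33. After median-ratio scaling the paired counts were 3 higher and 1 lower at both times, with medians of 0.43 at 60 min and 0.36 at 180 min. Bcor, the corepressor that Bcl6 recruits, stood at 0.418 and 0.232 FPKM at 0 min and 3.30 and 1.23 at 60 min, and at 0.688 and 0.241 at 180 min. It rose at 60 min by 2.36 ± 0.61 (adjusted p = 0.0480 unpaired, 0.00020 paired). Bcor passed the filter of 0.5 FPKM only through its 60 min libraries, where it was high. Its group means at the other times were 0.325 FPKM at 0 min, 0.3965 at 20 min and 0.4645 at 180 min. Zbtb7a (0.78) and Zbtb17 (0.73) were the other 2 called higher at 60 min, named after their values were seen. Pcgf1, a BCOR complex subunit, fell at 180 min by 1.41 (adjusted p = 0.0163). Zbtb7b had -1.05 at 60 min (0.0199 paired, 0.0843 after median-ratio scaling), and Bcorl1 was not called (-0.53 at 180 min).

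Of the clock genes, which Bhlhe40 and Bhlhe41 act on, 5 of 16 were tested. At 60 min 0 were higher [0] and 2 lower [1], with a median of 0.04, and at 180 min 1 was higher [1] and 2 were lower [1], with a median of -0.61. The counts were the same after median-ratio scaling, with medians of 0.33 and -0.03, and quantile normalization gave a median of 0.50 at 180 min. Dbp, an output factor of the clock, went from 2.64 and 1.06 FPKM at 0 min to 0.343 and 0.018 at 60 min and fell by 2.96 ± 0.73 (adjusted p = 0.0405). The 0.018 FPKM of replicate 2 lies near the floor, below the added 0.1, so the size of this fall is uncertain. Dbp passed the filter of 0.5 FPKM only with its 0 min libraries. Its later group means were 0.9665 FPKM at 20 min, 0.1805 at 60 min and 0.1515 at 180 min. Per1, a clock repressor, had -2.27 at 180 min (0.0604 unpaired, 3.8e-05 paired). Nfil3, a repressor that opposes Dbp, stood at 0.634 and 0.623 FPKM at 0 min and 2.92 in both libraries at 180 min, and rose by 2.05 ± 0.32 (adjusted p = 0.00448). Clock was not called (-0.44 at 180 min).

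Of the Zeb and Snail factors with CtBP, 4 of 8 were tested. At 60 min 0 were higher [0] and 2 lower [0], with a median of -0.44, and at 180 min 0 were higher [0] and 2 lower [2], with a median of -0.88. After median-ratio scaling the paired counts were 1 higher and 1 lower at 60 min (median -0.11) and 1 higher and 2 lower at 180 min (median -0.20). Ctbp2, the corepressor that Zeb2 binds, went from 1.89 and 1.61 FPKM at 0 min to 0.530 and 0.314 at 180 min, and fell by 1.85 ± 0.30 (adjusted p = 0.00547). Rcor1, a scaffold for the demethylase Kdm1a, fell by 1.26 (adjusted p = 0.0194), and Ctbp1 was not called (-0.50).

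Ikaros relatives and NuRD subunits had 12 of 15 genes tested. At 60 min 0 were higher [0] and 2 lower [1], with a median of -0.38, and at 180 min 0 were higher [0] and 9 lower [3], with a median of -1.22. After median-ratio scaling the paired counts were 1 higher and 2 lower at 60 min (median -0.05) and 3 higher and 6 lower at 180 min (median -0.54). Mta3 fell by 1.7 ± 0.27 at 180 min (adjusted p = 0.00458) and Rbbp7 by 1.64 ± 0.51 (0.0480). Chd3 had -1.59 (0.0534 unpaired, 0.00042 paired), and Mbd2 was not called at 0.34 but had 1.06 (0.00994 paired) after median-ratio scaling.

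Id and E proteins had 5 of 6 genes tested. At 60 min 1 was higher [0] and 2 were lower [0], with a median of -0.30, and at 180 min 2 were higher [0] and 2 lower [2], with a median of 0.47. Median-ratio scaling gave medians of 0.017 and 1.17, and 3 genes higher and 2 lower at 180 min in the paired fit. Id3, an inhibitor of the same class as Id2, stood at 2.33 and 0.973 FPKM at 0 min, 12.0 and 3.35 at 20 min, 16.8 and 6.07 at 60 min, and 8.37 and 2.96 at 180 min. Its libraries at 20 and 60 min lay above both at 0 min, and the change at 60 min was 2.66 ± 0.85 (adjusted p = 0.0853 unpaired, 5.3e-05 paired). The E protein genes Tcf3 and Tcf12 fell at 180 min by 1.60 (adjusted p = 0.0451) and 1.51 (0.0188), while Tcf4, named after its values were seen, had 0.68 (0.0305 paired). Tcf3 passed the filter of 0.5 FPKM only with its 0 min libraries. Its later group means were 0.7795 FPKM at 20 min, 0.4165 at 60 min and 0.2545 at 180 min. Id1 was not called (0.47), and had 1.17 (0.0473 paired) after median-ratio scaling.

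The partners of Ncor1, with Sin3 and class I histone deacetylases, had 9 of 9 genes tested. At 60 min 0 were higher [0] and 2 lower [1], with a median of -0.18, and at 180 min 1 was higher [1] and 5 were lower [3], with a median of -0.76. After median-ratio scaling the paired counts were 2 higher and 2 lower at 60 min (median 0.14) and 2 higher and 4 lower at 180 min (median -0.15), and quantile normalization gave a median of 0.22 at 180 min. Tbl1xr1, a core subunit, fell by 2.45 ± 0.31 (adjusted p = 0.00211) and Sin3a by 1.65 ± 0.41 (0.0238). Hdac1, named after its values were seen, was the gene called higher, at 0.88 (0.0495). Sin3b was not called at 0.10, and had 0.79 (0.0163 paired) after median-ratio scaling.

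The Groucho family with its recruiters had 5 of 8 genes tested. At 60 min 0 were higher [0] and 4 lower [2], with a median of -1.08, and at 180 min 0 were higher [0] and 4 lower [3], with a median of -2.08. After median-ratio scaling 1 gene was higher and 4 were lower at 180 min in the paired fit (median -1.49). Aes, a short Groucho protein, went from 3.19 and 2.87 FPKM at 0 min to 0.576 and 0.435 at 180 min, and fell by 2.38 ± 0.32 (adjusted p = 0.00282). Tle1, a paralog of Tle3, went from 1.18 and 0.743 FPKM to 0.131 and 0.099, and fell by 2.27 ± 0.36 (adjusted p = 0.00511). Tle1 passed the filter of 0.5 FPKM only through its 0 and 20 min libraries. Its group means were 0.208 FPKM at 60 min and 0.115 at 180 min. Hes6, a recruiter, had -2.15 at 60 min (0.379 unpaired, 0.00673 paired). At 180 min Hes6 had -2.08 (0.278 unpaired, 0.00459 paired), which is the list median. Replicate 2 of Hes6 was low, at 0.052 FPKM at 60 min and 0.144 at 180 min. Tle3 was called higher in the paired fit where Tle1 and Aes fell, and the difference itself was not tested. Tle4, another paralog named after its values were seen, had -1.08 at 60 min (adjusted p = 0.004 paired). At 180 min Tle4 had 0.007 (adjusted p = 0.978 paired), and 0.70 after median-ratio scaling.

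Genes known as repressed by the members had 10 of 11 tested, a list that holds inflammatory genes of other control as well. At 60 min 7 were higher [5] and 2 lower [1], with a median of 2.09, and at 180 min 6 were higher [6] and 3 lower [2], with a median of 1.53. Ccl7, a chemokine known as a Bcl6 target, went from 0.668 and 2.65 FPKM at 0 min to 15.3 and 30.3 at 60 min, and rose by 3.90 ± 0.74 (adjusted p = 0.0169). Prdm1, another Bcl6 target, stood at 1.32 and 1.62 FPKM at 0 min, 16 and 27.4 at 60 min and 5.27 and 3.87 at 180 min, and it rose at 60 min by 3.75 ± 0.36 (adjusted p = 0.00267). Ccnd2 rose at 180 min by 3.79 ± 0.57 (adjusted p = 0.00397). It passed the filter of 0.5 FPKM only through its 180 min libraries. Its group means before that were 0.2175 FPKM at 0 min, 0.1655 at 20 min and 0.7305 at 60 min. Irf4, named after its values were seen and counted higher at 60 min, passed only through its 60 min libraries. Its group means were 0.25 FPKM at 0 min, 0.285 at 20 min and 0.1825 at 180 min. Per1 and Dbp, which are also on the clock list, were the 2 lower at 60 min, and Ccl6 (-1.98), named after its values were seen, joined them at 180 min.

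**Figure D4:**
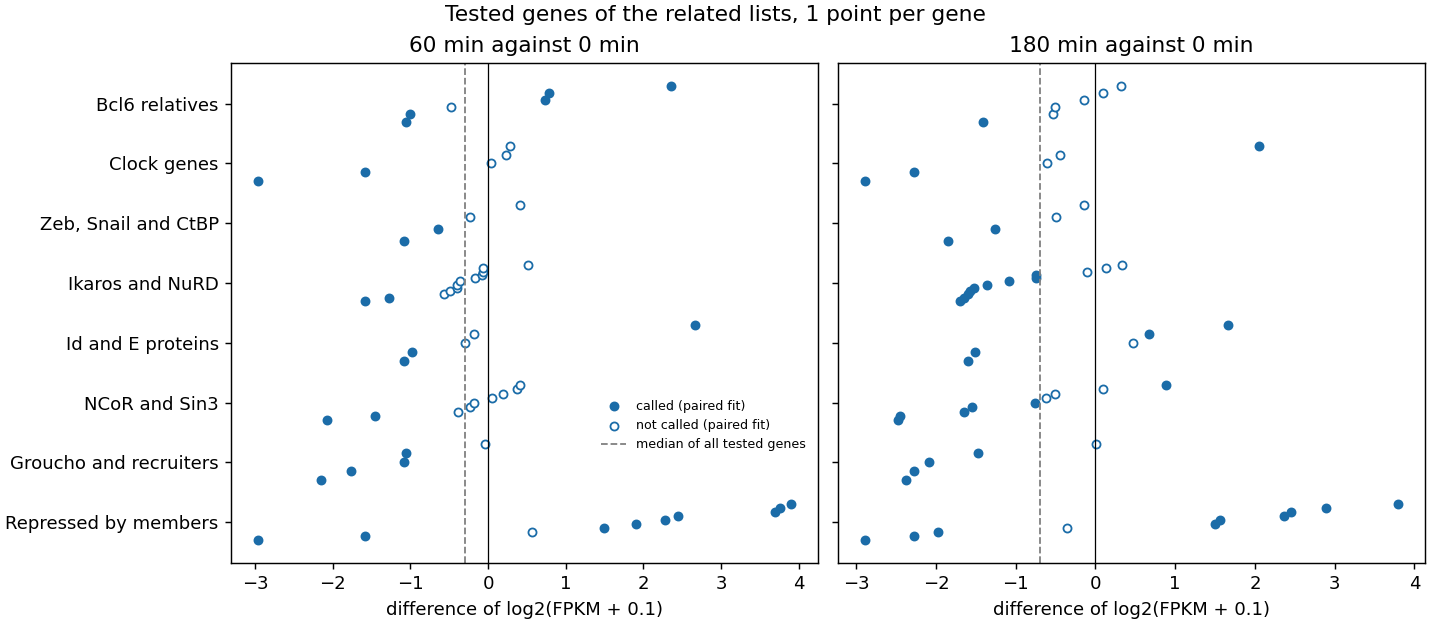
Changes of the tested genes of the 8 related lists at 60 and 180 min against 0 min, as differences of log2(FPKM + 0.1); filled points were called in the paired fit and the dashed line marks the median of all tested genes. The list of known repressed genes has a median of 2.09 at 60 min. The list of the Groucho family with its recruiters has one of -2.08 at 180 min, which is the value of the recruiter Hes6.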

How the data were processed

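GRO-seq reads of 8 libraries had been turned by the authors into a deposited table of FPKM per gene on mm9. The tools CASAVA 1.7, Bowtie2 2.0.5 and HOMER 4.6 and 4.7 are named, without their roles, per the submitters' processing notes. For strand handling, duplicate removal and the FPKM total, nothing was found in the labels or header. The length was the whole gene span in 99.3% of genes. The table also held 8 columns of per-sample values of another treatment, which were not used.

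Groups and replicate numbers came from the sample titles. The members and the gene lists were chosen with earlier results of these data known. A mean of 0.5 FPKM or more was required (8343 genes), and limma 3.58.1 in R 4.3.3 was fitted to log2(FPKM + 0.1) over all 8 libraries, with a variance trend, two-sided tests and Benjamini-Hochberg adjustment over all tested genes within each comparison. Differences of replicate 1 and replicate 2 correlated between all 6 pairs of groups (r = 0.59 to 0.88, above a limit of 0.1), so the replicate numbers were taken to pair the libraries. The design without the block is the main one.

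Depth was recovered from the step of FPKM in genes of up to 4000 bases: 98.1 to 100% of values were whole within 0.1 read, against 20% by chance. This fell short of the depth stated in the labels in 6 of 8 libraries.

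All 8 members are named. Of each list, up to 3 genes called in the paired fit with the largest change against 0 min were named, plus the gene not called with the highest FPKM; 1 gene this rule takes is not reported here. Alternatives were the replicate block, median-ratio scaling, voom on recovered reads, quantile normalization, a filter at 1 FPKM or none, fitting just the groups compared, leaving out 1 library at a time, and pseudocounts of 0.01 and 1. Promoter sequence came from RefSeq (GRCm38.p6), whose coordinates were not converted to mm9.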

Additional observations from a re-analysis of the deposited data

How the results depend on the processing

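Counts of called repressor genes as reported were 0, 1, 2, 1 and 0 of 8 at 20 against 0, 60 against 0, 180 against 0, 60 against 20 and 180 against 60 min, and 2 in the F-test. Pseudocounts of 0.01 and 1 and the filter of 1 FPKM gave the same counts. With no filter, which tests more genes, the F-test called 1. With only the compared groups in the fit, which leaves fewer libraries, 60 against 0 and 60 against 20 min gave 0 each. Median-ratio scaling and quantile normalization each gave 0 at 60 against 20 min and 3 at 180 against 0 min, where Tle3 was called too, and quantile normalization at 60 against 0 min called Bhlhe41 (adjusted p = 0.0207) and not Ikzf1 (0.0569). Voom gave 2 at 60 against 0 min. The causes were not tested.

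The pairing of replicate numbers changed most: with the replicate block the counts were 1, 6, 5, 4 and 5, and 8 in the F-test. The block with median-ratio scaling gave 0, 5, 4, 3 and 2, and 6 in the F-test, and the block with voom 1, 6, 6, 7 and 5, and 8. With each library left out in turn, over both fits, the counts ranged from 0 to 1, 0 to 6, 1 to 5, 0 to 5 and 0 to 6, and from 1 to 7 in the F-test.

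Directions turned for changes that were not called in the unpaired fit. Median-ratio scaling, with or without the block, gave 0.035 for Ikzf1 and 0.079 for Ncor1 at 20 min, and 0.32 for Bcl6 and 0.57 for Zeb2 at 180 min. Quantile normalization gave -0.25 for Zeb2 and 0.16 for Ncor1 at 20 min, -0.24 for Id2 at 60 min, and -0.13 for Id2 and 0.0024 for Ncor1 at 180 min. Leaving out a library, over both fits, gave ranges at 20 against 0 min of -0.14 to 0.48 for Bcl6, -0.70 to 0.79 for Bhlhe40, -0.43 to 0.057 for Ikzf1, -0.46 to 0.19 for Ncor1, -0.69 to 0.96 for Tle3 and -0.23 to 0.52 for Zeb2. The ranges were -0.11 to 0.80 for Id2 at 60 against 0 min and -0.54 to 0.20 for Zeb2 at 180 against 0 min. At 180 against 60 min they were -0.42 to 0.49 for Id2, -0.22 to 0.51 for Ncor1 and -0.26 to 1.22 for Tle3.

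Recovered reads were lowest in replicate 2, at 30 for Bhlhe40 and 58 for Bhlhe41 at 180 min and 104 for Tle3 at 0 min. The part of depth in the results was not tested. With 2 replicates per group, 1 library can decide a call.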

Other observations

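Several genes of the related lists lay below the filter and were not tested. Zeb1, the paralog of Zeb2, stood at 0.107 and 0.178 FPKM at 0 min in replicates 1 and 2, at 0.25 and 0.27 at 60 min and at 0.777 and 0.974 at 180 min, the highest libraries of the gene. Zbtb32, a BTB zinc finger relative of Bcl6, stood at 0.05 and 0.167 FPKM at 0 min, 0.678 and 0.551 at 60 min and 0.111 and 0.154 at 180 min. Among the clock genes, Tef went from 1.05 and 0.501 FPKM at 0 min to 0.165 and 0.016 at 180 min, and Npas2 from 0.384 and 0.306 to 0.036 and 0.013. These 4 genes were chosen after their values were seen.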
